A study of Mus musculus with 24 samples.

Results

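The 10 genes followed here move calcium into, within and out of the sarcoplasmic reticulum of the heart muscle cell: *Atp2a2*, *Pln*, *Casq2*, *Hrc*, *Ryr2*, *Trdn*, *Asph*, *Jph2*, *Slc8a1* and *Cacna1c*. They were chosen by symbol on 24 whole-heart microarrays, and all 10 were among the 14763 genes tested. Each was read from the brightest of its probe sets (short oligonucleotide groups designed against 1 transcript), and the other probe sets served as a check. The 10 genes have 33 probe sets in all, and *Casq2* and *Hrc* have only 1 each.

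At each heartbeat calcium enters through the L-type channel and opens the ryanodine receptor, which releases the calcium stored in the sarcoplasmic reticulum. The pump SERCA2 then returns calcium to the store under the brake of phospholamban, and the sodium-calcium exchanger carries the remainder out of the cell. Calsequestrin and related proteins hold calcium inside the store, and triadin, junctin and junctophilin keep channel and store together. Lower SERCA2 activity is a well-known feature of failing hearts.

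All mice were of strain FVB/N. Ntg mice carried no transgene, dnPI3K mice carried a dominant negative phosphoinositide 3-kinase (PI3K) transgene that lowers PI3K activity in the heart, and caPI3K mice a constitutively active PI3K transgene that raises it. Which promoter drives the transgenes is not stated by the labels. Mice of each genotype were operated on when 4 months old, with either a sham procedure or an infarction of the heart (MI), and after 8 weeks the hearts were collected, which gives 6 groups of 4 arrays. A tag of the caPI3K MI samples is named for sham, while its text and the titles say MI, and they were taken as MI. Hearts were homogenized singly, but the labels do not state that every array comes from its own animal. The p-values therefore reflect only how far these arrays spread, which may be technical.

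Values are log2 of the deposited signal plus 11.2, and a difference of 1 is a doubling. All arrays had a median signal of 102.9 to 118.5 except dnPI3K MI replicate 1, at 150.7. The bright end of the arrays was less even, with the top 1% of signals starting between 15718 and 20369, and the sham arrays numbered 415 to 418 (replicates 1 and 2 of Ntg and of dnPI3K) held the 4 highest values. This bears on the calcium genes because 6 of them lie above the 95th percentile of tested genes in signal, *Atp2a2* and *Pln* at 99.9. Of the 4 caPI3K sham arrays, 3 (replicates 1 to 3) carried signal of the Y-linked gene *Eif2s3y* (10.55 to 10.99, against at most 5.72 on the others). The labels used here give no sex. All 4 caPI3K sham arrays are numbered 1410 to 1417, above every other array (1191 at most). Of the 4 caPI3K MI arrays only 1 is numbered 1000 and over. In every comparison with caPI3K sham hearts, infarction or genotype therefore cannot be told apart from array number. A split of the numbers at 1000 does not separate them either. The tissue matched its label: all 15 listed contractile genes of heart muscle were measured, with a summed level of 18.91 to 19.50 over the 24 arrays.

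After infarction most calcium genes had small negative changes. In Ntg hearts 9 of 10 had a negative change (median -0.23, against 0.00 over all tested genes), in dnPI3K hearts 9 of 10 (median -0.25, against 0.01), and in caPI3K hearts 10 of 10 (median -0.10, against 0.00). These tallies lean on the scaling: with quantile normalization they were 8, 8 and 9 of 10 (medians -0.08, -0.11 and -0.10). Scaled on contractile genes they were 6, 6 and 8 (medians -0.03, -0.07 and -0.01), while the medians of all genes rose to 0.19, 0.19 and 0.08. Without sham arrays 415 to 418 they were 7 in Ntg (median -0.11) and 8 in dnPI3K hearts (median -0.19). Among Ntg arrays numbered 1000 and over (3 MI, 2 sham) *Ryr2*, *Casq2*, *Slc8a1*, *Asph* and *Jph2* had positive differences. The other members had differences from -0.12 to -0.03 on these arrays. Called, here and below, means an adjusted p under 0.05 in limma. At that threshold 3 genes fell in dnPI3K hearts, namely *Hrc*, *Trdn* and *Atp2a2*, where 9.37% of all genes were called. No member was called in Ntg hearts (0.772% of all genes called) or in caPI3K hearts (1.11% called). At an unadjusted p under 0.05 in limma there were 6 members in Ntg hearts, beside 1773 of all 14763 genes. In caPI3K hearts there were 3 members, beside 1793 genes. In each of these comparisons the other very bright genes, the top 5% by mean level without the members (732 genes), had negative medians too: -0.10 in Ntg, -0.18 in dnPI3K and -0.02 in caPI3K hearts. In dnPI3K hearts 272 of these 732 genes were called, 240 of them down, so calls were far more frequent among bright genes than among all genes. In Ntg hearts 14 were called (3 down) and in caPI3K hearts 13 (0 down).

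**Figure D1:**
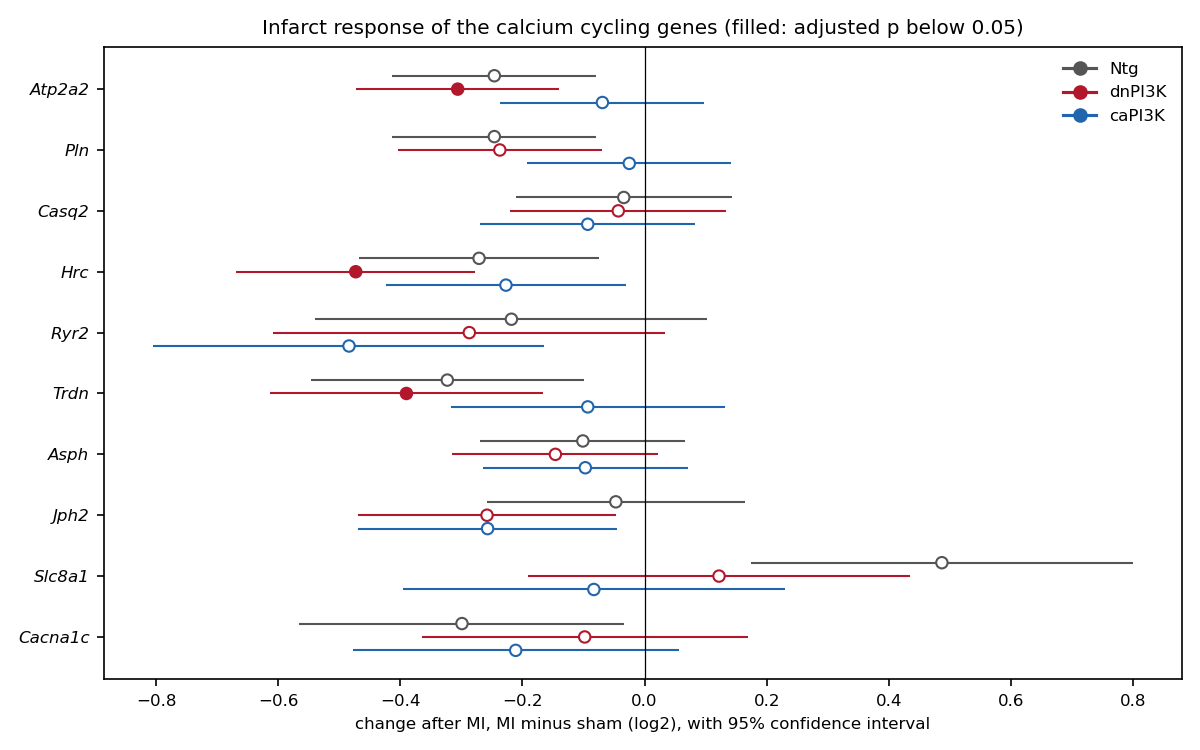
Change after infarction, MI minus sham on the log2 scale, of the 10 calcium cycling genes in Ntg (grey), dnPI3K (red) and caPI3K (blue) hearts; points are limma estimates from 4 arrays a group, bars 95% confidence intervals, and filled points have an adjusted p below 0.05. The filled points are the dnPI3K values of *Hrc* (-0.47), *Trdn* (-0.39) and *Atp2a2* (-0.31), and *Slc8a1* in Ntg hearts (0.49) is the member farthest to the right.

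*Atp2a2* encodes SERCA2, the pump that refills the store. Its levels were 15.92, 15.75, 15.55 and 15.72 on the Ntg sham arrays and 15.42, 15.49, 15.53 and 15.53 after MI. In dnPI3K hearts they were 15.93, 15.66, 15.54 and 15.75 after sham and 15.48, 15.37, 15.42 and 15.38 after MI. In both genotypes every MI array lay below every sham array, and arrays 415 and 417, the first sham replicates, were the highest. The levels in caPI3K hearts were 15.56, 15.54, 15.52 and 15.52 after sham and 15.41, 15.60, 15.34 and 15.53 after MI, which overlap. The fall in dnPI3K hearts was 0.31 (SE 0.08, fold 0.809, limma adjusted p = 0.0154). In Ntg hearts the difference was -0.25 (SE 0.08, adjusted p = 0.179) and in caPI3K hearts -0.07 (SE 0.08, adjusted p = 0.82). All 6 probe sets of *Atp2a2* were lower after MI in dnPI3K hearts, by 0.23 to 0.78, though only the brightest was called when all 33061 probe sets were tested (5.59% of them called). Without dnPI3K sham replicate 1 the fall was not called (-0.24, adjusted p = 0.0818).

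*Pln* encodes phospholamban, the inhibitor of SERCA2. In Ntg hearts it stood at 16.06, 15.96, 15.69 and 15.77 after sham and at 15.58, 15.64, 15.61 and 15.66 after MI. In dnPI3K hearts it stood at 15.99, 15.84, 15.65 and 15.79 after sham and at 15.59, 15.50, 15.64 and 15.60 after MI. Again no MI array reached a sham array, and the replicates that were highest for *Atp2a2* were highest here. The differences were -0.25 (SE 0.08, adjusted p = 0.181) in Ntg and -0.24 (SE 0.08, adjusted p = 0.0668) in dnPI3K hearts, so *Pln* did not pass the test. It was called without dnPI3K sham replicate 3 (-0.29, adjusted p = 0.0281) and when low array numbers had a term of their own (-0.28, adjusted p = 0.00483). In caPI3K hearts the sham values 15.75, 15.65, 15.65 and 15.65 overlapped the MI values 15.67, 15.72, 15.49 and 15.72 (difference -0.03, SE 0.08, adjusted p = 0.95). The 3 probe sets of *Pln* gave nearly the same change in dnPI3K hearts, from -0.24 to -0.21.

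Because *Pln* restrains the product of *Atp2a2*, the difference of the 2 levels within each array was compared as well; it does not depend on a common scaling of an array. *Pln* minus *Atp2a2* was 0.13 (SD 0.07) in Ntg sham, 0.13 (SD 0.04) in Ntg MI, 0.10 (SD 0.06) in dnPI3K sham, 0.17 (SD 0.06) in dnPI3K MI, 0.14 (SD 0.04) in caPI3K sham and 0.18 (SD 0.06) in caPI3K MI hearts (n = 4 each). None of 5 comparisons passed a two-sided exact permutation test. MI against sham gave 0.00 in Ntg (p = 1), 0.07 in dnPI3K (p = 0.143) and 0.04 in caPI3K hearts (p = 0.286), exact and unadjusted, with adjusted values of 1, 0.715 and 0.715. Against Ntg sham the difference was -0.03 in dnPI3K sham (exact p = 0.457, adjusted 0.762) and 0.01 in caPI3K sham (exact p = 0.971, adjusted 1). Groups of 4 can reach an exact p of 0.0286 at the lowest, so only a complete separation would have passed before adjustment. After adjustment over the 5 tests, a complete separation in only 1 of them would not have passed either. These tests therefore cannot show that the relation of the 2 genes was unchanged.

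Over the 24 arrays *Atp2a2* and *Pln* correlated with each other at r = 0.94, and at 0.87 once group means were removed. Their closest companions among all tested genes were other very bright transcripts. For *Atp2a2* these were *Atp5g1* (r = 0.961), *Sdhb* (0.955), *Tnni3* (0.953), *Myl3* (0.948) and *Slc25a4* (0.947), that is, mitochondrial enzymes and carriers and myofilament proteins. For *Pln* they were *Atp5h* (0.976), *Myl3* (0.972), *Atp5g3* (0.971), *Cox7a2* (0.969) and *Cox6b1* (0.962). All 9 have a mean level between 15.23 and 15.71, and the arrays they share include those with the raised bright end, so these values are given as a description only.

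**Figure D2:**
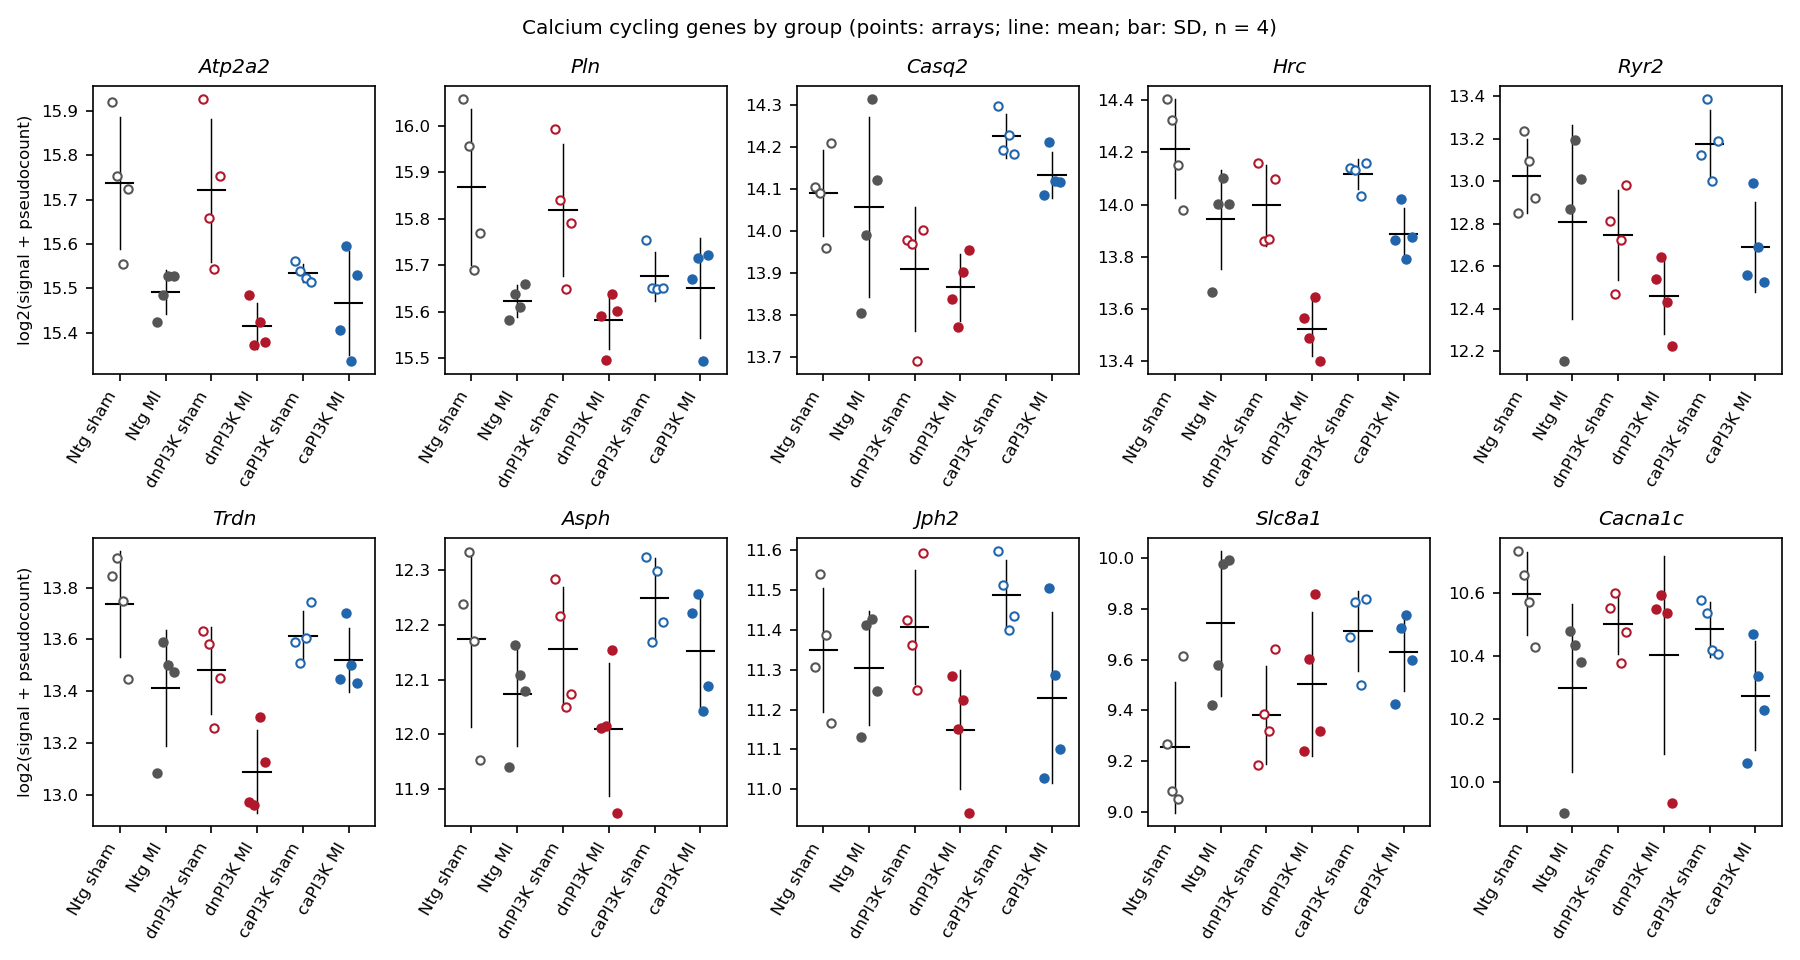
Level of each calcium cycling gene, log2(signal + pseudocount), on every array of the 6 groups; open points are sham and filled points MI arrays, horizontal lines group means and vertical bars SD (n = 4), and each panel has its own vertical scale. The dnPI3K MI arrays of *Hrc* (13.40 to 13.65) lie below all other arrays, and the dnPI3K arrays of *Casq2* (13.69 to 14.00) lie below all caPI3K arrays (14.08 to 14.30).

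*Hrc* encodes the histidine-rich calcium-binding protein of the store, which binds both SERCA2 and triadin, and it gave the clearest infarct change of the 10 genes. In dnPI3K hearts its levels were 14.16, 13.86, 13.87 and 14.10 after sham and 13.57, 13.49, 13.65 and 13.40 after MI. The fall was 0.47 (SE 0.10, fold 0.721, 95% interval 0.629 to 0.825, adjusted p = 0.0019). The 4 dnPI3K MI arrays were the lowest of all 24. In Ntg hearts the sham values 14.40, 14.32, 14.15 and 13.98 overlapped the MI values 13.67, 14.00, 14.10 and 14.00 (difference -0.27, SE 0.10, adjusted p = 0.214; without sham replicate 4, -0.35, adjusted p = 0.0319). In caPI3K hearts the sham values 14.14, 14.13, 14.03 and 14.16 lay just above the MI values 13.87, 14.02, 13.79 and 13.88 (difference -0.23, SE 0.10, adjusted p = 0.309).

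Among infarcted hearts *Hrc* was lower in dnPI3K than in Ntg mice by 0.42 (change -0.42, SE 0.10, adjusted p = 0.0129). It was the 1 member called there, against 2.59% of all genes and 56 of the 732 other very bright genes (51 of them down). *Hrc* was higher in caPI3K than in dnPI3K infarcted hearts (0.36, SE 0.10, adjusted p = 0.0247), where *Trdn* was called as well. Of all genes 4.23% were called in that comparison, and of the 732 very bright genes 90 were. Leaving out 1 array ended these *Hrc* calls in 2 of 8 and in 4 of 8 cases. For the first call this was without Ntg MI replicate 3 (adjusted p = 0.0717) or 4 (0.052). For the second it was without dnPI3K MI replicate 2 (0.0726) or 4 (0.0796) or caPI3K MI replicate 2 (0.101) or 4 (0.0524). Array numbers in the labels fall into a range under 1000 and one from 1000 up. The difference from Ntg MI was -0.13 among the low numbers, where Ntg MI has 1 array, and -0.55 among the high numbers, where dnPI3K MI has 1. The infarct change within dnPI3K hearts was -0.47 and -0.50 in the same ranges. It was called under all 10 ways of processing tried, the reported one included, with changes from -0.48 to -0.30, and in 8 of 8 runs with 1 array left out.

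The infarct fall of *Atp2a2* and *Trdn* was less firm. Scaling the arrays on the brightest genes left *Atp2a2* at -0.17 and called, while quantile normalization gave -0.08 (adjusted p = 0.279) and scaling on contractile genes -0.13, neither called. Without sham arrays 415 to 418, which leaves 2 dnPI3K sham arrays, it was -0.23, and a fit on the 2 groups alone kept -0.31, also not called. *Atp2a2* was called in 6 of the 10 ways of processing and *Trdn* in 6, while *Pln* ranged from -0.28 to -0.02 and was called in 1.

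**Figure D3:**
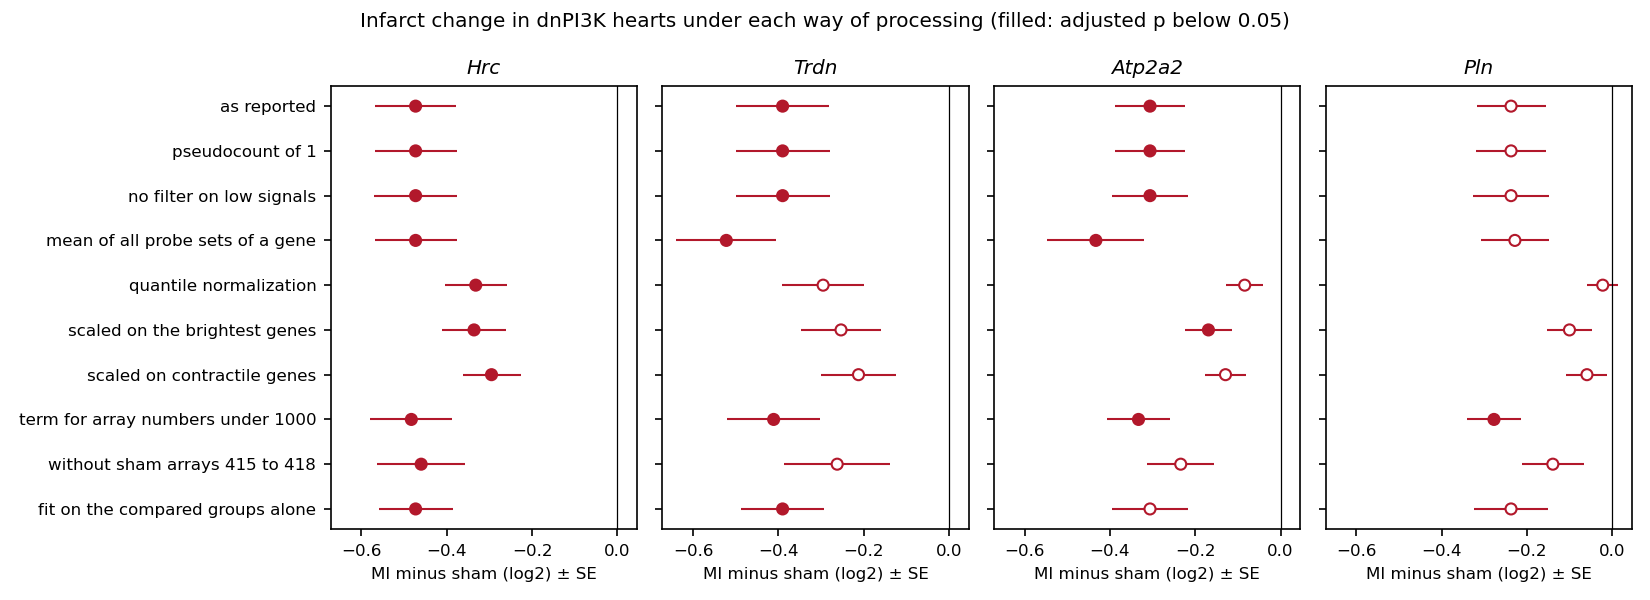
Infarct change in dnPI3K hearts (MI minus sham, log2, with SE) of *Hrc*, *Trdn*, *Atp2a2* and *Pln* under 10 ways of processing, one per line; filled points have an adjusted p below 0.05. *Hrc* is filled on every line (-0.48 to -0.30), whereas *Atp2a2* moves from -0.43 to -0.08 and *Pln* from -0.28 to -0.02.

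Other cell types and heart muscle genes moved in the same comparison, and their part in the falls was not tested. After MI in dnPI3K hearts the 15 contractile genes had a median change of -0.18, 14 of them negative and 1 called, and their summed level went from 19.12 to 19.48 on sham to 19.00 to 19.16 on MI arrays. The list with the most calls was that of fibroblasts. Of its 10 markers 5 were called higher (median 0.73), with a summed level of 16.31 to 16.54 after sham and 16.77 to 17.05 after MI. Called higher were also 1 of 10 macrophage and 2 of 8 smooth muscle and pericyte markers, 0 of 10 endothelial markers were called, and 2 of 4 measured fat cell markers were lower. Of 7 atrial markers 1 was called higher and 1 lower, and 6 had negative changes. Whole hearts cannot tell fewer muscle cells from less RNA per cell.

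*Casq2* encodes cardiac calsequestrin, the main calcium buffer of the store, and it differed by genotype rather than by operation. Its sham levels were 14.10, 14.09, 13.96 and 14.21 in Ntg, 13.98, 13.97, 13.69 and 14.00 in dnPI3K and 14.30, 14.19, 14.23 and 14.18 in caPI3K hearts. The caPI3K sham arrays were all above the dnPI3K sham arrays, by 0.32 on average (SE 0.09, fold 1.24, adjusted p = 0.0171). *Casq2* was the 1 member called in this comparison, in which 9.90% of all genes and 202 of the 732 other very bright genes were. After MI the levels were 13.84, 13.77, 13.90 and 13.95 in dnPI3K and 14.08, 14.21, 14.12 and 14.12 in caPI3K hearts, again without overlap, but the difference of 0.27 (SE 0.09, adjusted p = 0.0835) did not pass (with scaling on contractile genes 0.30, adjusted p = 0.0244). Infarction itself moved *Casq2* by -0.03 in Ntg, -0.04 in dnPI3K and -0.09 in caPI3K hearts (adjusted p from 0.749 to 0.931).

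The *Casq2* call in sham hearts depends on single arrays. It was lost without dnPI3K sham replicate 3, the lowest array (0.24, adjusted p = 0.0875), and without caPI3K sham replicate 1 (0.29, adjusted p = 0.0576). It was also lost without sham arrays 415 to 418 (0.38, adjusted p = 0.0501) and without the 3 caPI3K sham arrays with Y-linked signal (0.27, adjusted p = 0.486), which leaves 1 array that is assumed to vary like the other groups. On those 3 arrays genotype and Y-linked signal cannot be told apart, in this and in every other comparison with caPI3K sham hearts. Quantile normalization and scaling on contractile genes raised the count of members in this comparison to 3, adding *Hrc* (0.23 and 0.25) and *Ryr2* (0.47 and 0.56). As deposited these stood at 0.12 (adjusted p = 0.544) and 0.43 (adjusted p = 0.0848).

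The 250 bases before the start of *Hrc* and *Casq2*, 2 of the members called between caPI3K and dnPI3K hearts, and of *Casq1*, a store gene described further on, are shown for their letters. They come from RefSeq (GRCm38.p6), where 7 of the 10 members have such a window and *Atp2a2*, *Trdn* and *Asph* have none. Capitals mark the E box CANNTG and the GC box GGGCGG, the latter read on either strand (as CCGCCC on the other); both were searched on both strands, and none of the marked motifs overlap. The lines read 5′ to 3′ on the strand of the gene.
Hrc at chr7:45335019-45335268, plus strand: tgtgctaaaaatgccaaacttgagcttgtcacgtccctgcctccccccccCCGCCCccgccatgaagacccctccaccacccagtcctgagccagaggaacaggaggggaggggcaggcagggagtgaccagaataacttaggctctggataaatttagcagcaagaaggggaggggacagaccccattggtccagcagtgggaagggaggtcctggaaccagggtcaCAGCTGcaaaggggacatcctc
Casq2 at chr3:102086165-102086414, plus strand: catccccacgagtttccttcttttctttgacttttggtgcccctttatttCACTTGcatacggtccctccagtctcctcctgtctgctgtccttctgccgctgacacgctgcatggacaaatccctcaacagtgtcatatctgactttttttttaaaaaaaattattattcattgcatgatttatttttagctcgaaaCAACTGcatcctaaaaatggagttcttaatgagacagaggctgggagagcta
Casq1 at chr1:172219896-172220145, minus strand: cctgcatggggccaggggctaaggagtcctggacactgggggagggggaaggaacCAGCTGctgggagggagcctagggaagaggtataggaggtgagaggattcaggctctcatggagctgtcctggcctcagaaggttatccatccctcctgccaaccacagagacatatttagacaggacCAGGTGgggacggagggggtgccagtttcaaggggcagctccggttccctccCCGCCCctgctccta
An E box was found in 10 of the 10 windows of the 7 members, and in 66.2% of the 32851 windows of that length. A GC box was found in 4 of the 10 windows (32.7% of all), among them that of *Hrc*. The letters CATTCC (the M-CAT element, 12.6% of all) and GTAAACA (the FoxO motif, 3.17% of all) were found in 0 of the 10. These matches are descriptions of letters, not of bound sites.

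*Trdn* encodes triadin, which ties calsequestrin to the ryanodine receptor. On its brightest probe set the levels were 13.63, 13.58, 13.26 and 13.45 in dnPI3K sham and 12.97, 12.96, 13.30 and 13.13 in dnPI3K MI hearts, so 1 MI array reached into the sham range. The fall was 0.39 (SE 0.11, adjusted p = 0.022). Ntg hearts had 13.84, 13.91, 13.75 and 13.45 after sham and 13.09, 13.59, 13.50 and 13.48 after MI (difference -0.32, SE 0.11, adjusted p = 0.188). In caPI3K hearts the difference was -0.09 (SE 0.11, adjusted p = 0.821). Infarcted caPI3K hearts, at 13.45, 13.70, 13.50 and 13.43, were all above infarcted dnPI3K hearts (0.43, SE 0.11, adjusted p = 0.0205). The infarct fall was not called with quantile normalization (-0.30, adjusted p = 0.0574), with scaling on the brightest genes (-0.25, adjusted p = 0.0783) or on contractile genes (-0.21, adjusted p = 0.127), without arrays 415 to 418 (-0.26, adjusted p = 0.294), or without dnPI3K sham replicate 1 (-0.34) or 2 (-0.36) or dnPI3K MI replicate 1 (-0.35) or 2 (-0.35), with adjusted p from 0.067 to 0.0926. The higher level in infarcted caPI3K hearts was called under all 9 ways of processing that were run for it, and lost without dnPI3K MI replicate 1 (0.39, adjusted p = 0.0726) or 2 (0.39, 0.0785) or caPI3K MI replicate 2 (0.37, 0.0934). Without Ntg sham replicate 4 the Ntg difference was called (-0.42, adjusted p = 0.0216).

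Triadin is made in several splice forms, and its 6 probe sets did not move alike. All 6 were lower after MI in dnPI3K hearts, 4 of them by 0.33 to 0.41 without passing. The dimmest of them stood at 8.68, 8.67, 8.26 and 8.27 after sham and at 6.86, 7.32, 7.51 and 7.08 after MI in dnPI3K hearts, a fall of 1.28 (SE 0.24, adjusted p = 0.00141 over all probe sets). No other group came below 8.26 on it. Infarcted dnPI3K hearts were lower than infarcted Ntg hearts by 1.53 on this probe set (change -1.53, SE 0.24, adjusted p = 0.00062; 1.47% of probe sets called). Infarcted caPI3K hearts were higher than infarcted dnPI3K hearts by 1.78 (SE 0.24, adjusted p = 3.45e-05; 2.53% called). The other 5 probe sets of *Trdn* differed by -0.39 to -0.17 and by 0.05 to 0.43 in the same comparisons. In sham hearts too, the dimmest probe set was lower on the dnPI3K arrays (8.26 to 8.68) than on all caPI3K arrays (8.86 to 9.35). The Ntg sham arrays (8.34 to 9.70) overlapped both. Between caPI3K and dnPI3K sham hearts the 6 probe sets differed by -0.17 to 0.70, and 1 was called (6.69% of all probe sets called). Which triadin transcripts each probe set reads was not looked at.

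*Ryr2* encodes the ryanodine receptor, the release channel. Its sham levels were 12.85, 13.24, 13.09 and 12.92 in Ntg, 12.81, 12.47, 12.72 and 12.98 in dnPI3K and 13.12, 13.39, 13.00 and 13.19 in caPI3K hearts. After MI they were 12.15, 12.87, 13.19 and 13.01, then 12.54, 12.64, 12.43 and 12.22, and 12.56, 12.99, 12.69 and 12.53 in the same order. In caPI3K hearts each MI array was below each sham array (difference -0.48, SE 0.16, adjusted p = 0.144). In the other genotypes the arrays overlapped. Of the ways of processing tried, a fit on the caPI3K groups alone called it (adjusted p = 0.0184). Ntg MI replicate 1 lay far below the other Ntg MI arrays, and without it the Ntg difference of -0.22 became 0.00. Without that array infarcted dnPI3K hearts were called lower than infarcted Ntg hearts in *Ryr2* (-0.57, adjusted p = 0.0113), against -0.35 (SE 0.16, adjusted p = 0.28) with it.

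*Slc8a1* encodes the sodium-calcium exchanger, and was the only member with a positive change in Ntg and dnPI3K hearts. Its Ntg levels were 9.27, 9.08, 9.05 and 9.61 after sham and 9.42, 9.58, 9.98 and 9.99 after MI. The difference of 0.49 (SE 0.15, fold 1.40) had an unadjusted p of 0.00355 and an adjusted p of 0.151, and sham replicate 4 lay within the MI range. It was called without that array (0.61, adjusted p = 0.0201) and with scaling on contractile genes (0.69, adjusted p = 0.0227). The change was 0.12 (SE 0.15) in dnPI3K and -0.08 (SE 0.15) in caPI3K hearts. Before infarction caPI3K hearts, at 9.69, 9.83, 9.50 and 9.84, were 0.46 above Ntg hearts (SE 0.15, adjusted p = 0.206), and were called higher without Ntg sham replicate 4 (0.58, adjusted p = 0.0391). The 4 probe sets of *Slc8a1* ranged from -0.14 to 0.96 in the Ntg comparison, and 1 of the 4 was negative.

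The remaining couplon and channel genes were not called in any comparison on their brightest probe sets. *Asph*, whose locus makes junctin and the enzyme aspartyl beta-hydroxylase from 1 gene, stayed between 11.86 and 12.33 on all arrays, with infarct changes of -0.10, -0.15 and -0.10 in Ntg, dnPI3K and caPI3K hearts. Its 6 probe sets, which may read different products, ranged from -0.15 to 0.94 after MI in dnPI3K hearts. *Jph2*, junctophilin, which bridges the store and the surface membrane, changed by -0.05 in Ntg, -0.26 in dnPI3K and -0.26 in caPI3K hearts (SE 0.10 each; adjusted p = 0.921, 0.124 and 0.273). *Cacna1c*, the pore of the L-type channel, changed by -0.30, -0.10 and -0.21 (SE 0.13 each; adjusted p = 0.332, 0.728 and 0.565). The dimmer probe set of *Cacna1c* was at 9.49 to 9.75 in caPI3K sham and at 9.07 to 9.14 in dnPI3K sham hearts, a difference of 0.51 (SE 0.14, adjusted p = 0.0186 over probe sets, 6.69% of which were called), while the brighter one differed by -0.02.

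Whether the infarct response itself differed between genotypes was tested directly, and no member was called. The share of all genes called was 0 for dnPI3K minus Ntg, 0 for caPI3K minus Ntg and 0 for caPI3K minus dnPI3K in limma, with 1122, 817 and 1501 genes at an unadjusted p under 0.05. The largest member difference was that of *Slc8a1* between caPI3K and Ntg hearts, -0.57 (SE 0.22, 95% interval -1.01 to -0.13, adjusted p = 0.856). For *Atp2a2* the caPI3K change exceeded the dnPI3K change by 0.24 (SE 0.12, 95% interval 0.00 to 0.47, unadjusted p = 0.0486, adjusted p = 0.486). For *Hrc* it did so by 0.25 (SE 0.14, 95% interval -0.03 to 0.52, adjusted p = 0.567) and for *Trdn* by 0.30 (SE 0.15, 95% interval -0.02 to 0.62, adjusted p = 0.535). The call of *Hrc*, *Trdn* and *Atp2a2* in dnPI3K hearts alone therefore does not show that their response differed from that in the other genotypes. These comparisons share sham and MI groups with those above.

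Set against Ntg sham hearts, no member was called in sham hearts of dnPI3K (1.14% of all genes called) or of caPI3K mice (0.278% called). At an unadjusted p under 0.05 in limma there were 3 members in dnPI3K sham hearts, beside 1590 of all 14763 genes. In caPI3K sham hearts there were 3 members, beside 1659 genes. *Trdn* was at -0.26 (SE 0.11, adjusted p = 0.36), *Hrc* at -0.22 (SE 0.10, adjusted p = 0.385) and *Casq2* at -0.18 (SE 0.09, adjusted p = 0.442) in dnPI3K sham hearts. *Atp2a2* was at -0.20 (SE 0.08, adjusted p = 0.322) and *Pln* at -0.19 (SE 0.08, adjusted p = 0.353) in caPI3K sham hearts, where the very bright genes had a median of -0.09 and the 15 contractile genes one of -0.17. Among infarcted hearts caPI3K and Ntg mice did not differ in any member by more than 0.12, and 0 of all genes were called in limma (percent called 0, with 683 genes at an unadjusted p under 0.05).

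Other genes of the pathway were taken from 5 lists, of which 58 genes were measured. After MI, 1 of 58 was called in Ntg (up, 0.772% of all genes called), 7 in dnPI3K (2 up, 5 down, 9.37% of all genes called) and 1 in caPI3K hearts (down, 1.11% of all genes called). In sham hearts 2 were lower in dnPI3K than in Ntg mice (1.14% of all genes called) and 0 differed between caPI3K and Ntg (0.278%). Between caPI3K and dnPI3K sham hearts 12 differed (9 higher, 3 lower in caPI3K, 9.90% of all genes called). In infarcted hearts 4 were lower in dnPI3K than in Ntg (2.59% of all genes called). Between caPI3K and dnPI3K 4 differed (3 higher, 1 lower, 4.23% of all genes called), and between caPI3K and Ntg 0 (0% called).

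The largest of these differences were in the list of uptake and store genes. *Casq1*, the calsequestrin best known from skeletal muscle, stood at 11.35, 11.33, 11.28 and 11.95 in Ntg sham, at 10.17, 9.74, 9.44 and 10.45 in dnPI3K sham and at 11.98, 11.95, 12.16 and 12.20 in caPI3K sham hearts. All dnPI3K sham arrays lay below the other sham arrays, and 1 Ntg array reached the caPI3K range. In dnPI3K sham hearts *Casq1* was 1.53 lower than in Ntg (change -1.53, SE 0.17, adjusted p = 6.34e-06), and caPI3K sham hearts were 2.12 above dnPI3K sham hearts (SE 0.17, adjusted p = 4.76e-09). After MI the differences were -1.30 (SE 0.17, adjusted p = 6.16e-05) and 1.67 (SE 0.17, adjusted p = 4.96e-07). These 4 comparisons of *Casq1* were called under every way of processing and in every run with 1 array left out, and within the 2 ranges of array numbers dnPI3K and Ntg sham hearts differed by -1.38 and -1.67. The 4 measured of 9 skeletal muscle markers had summed levels of 7.79 to 9.03 in Ntg, 8.03 to 9.18 in dnPI3K and 7.75 to 8.75 in caPI3K sham hearts, which overlap.

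*Tmem38b*, a counter-ion channel of the store membrane, followed the same order. Its sham levels were 10.69, 10.51, 10.69 and 11.03 in Ntg, 9.84, 9.75, 10.09 and 10.12 in dnPI3K and 11.26, 11.55, 11.18 and 10.99 in caPI3K hearts. It was lower in dnPI3K than in Ntg hearts by 0.78 after sham (change -0.78, SE 0.17, adjusted p = 0.0131) and by 0.70 after MI (change -0.70, SE 0.17, adjusted p = 0.02). It was higher in caPI3K than in dnPI3K hearts by 1.30 after sham (SE 0.17, adjusted p = 6.18e-06) and by 0.90 after MI (SE 0.17, adjusted p = 0.00137). Against Ntg the sham difference was lost without Ntg sham replicate 4 (-0.68, adjusted p = 0.0548) or dnPI3K sham replicate 1 (-0.74, 0.0502) or 2 (-0.72, 0.0781). The MI difference was lost without Ntg MI replicate 4 (-0.53, 0.113) or dnPI3K MI replicate 1 (-0.52, 0.0953) or 2 (-0.65, 0.0712). Of 10 ways of processing, 7 called the former and 5 the latter. *Tmem38a*, its relative, fell with MI by 0.39 in dnPI3K (change -0.39, SE 0.09, adjusted p = 0.00811) and by 0.44 in caPI3K hearts (change -0.44, SE 0.09, adjusted p = 0.0144), the only one of the 58 called there. Among array numbers of 1000 and over, with 1 caPI3K MI array, the caPI3K difference was -0.29. In caPI3K hearts the call of *Tmem38a* was lost without the arrays with Y-linked signal (-0.32, adjusted p = 0.718), without caPI3K sham replicate 2 (-0.39, 0.0934) or caPI3K MI replicate 1 (-0.37, 0.0904). *Tmem38a* was also called by genotype. It was lower in dnPI3K than in Ntg hearts after MI (-0.34, SE 0.09, adjusted p = 0.0452), which held in 1 of 8 runs with 1 array left out, and higher in caPI3K than in dnPI3K sham hearts (0.34, SE 0.09, adjusted p = 0.0164), which held in 6 of 8.

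**Figure D4:**
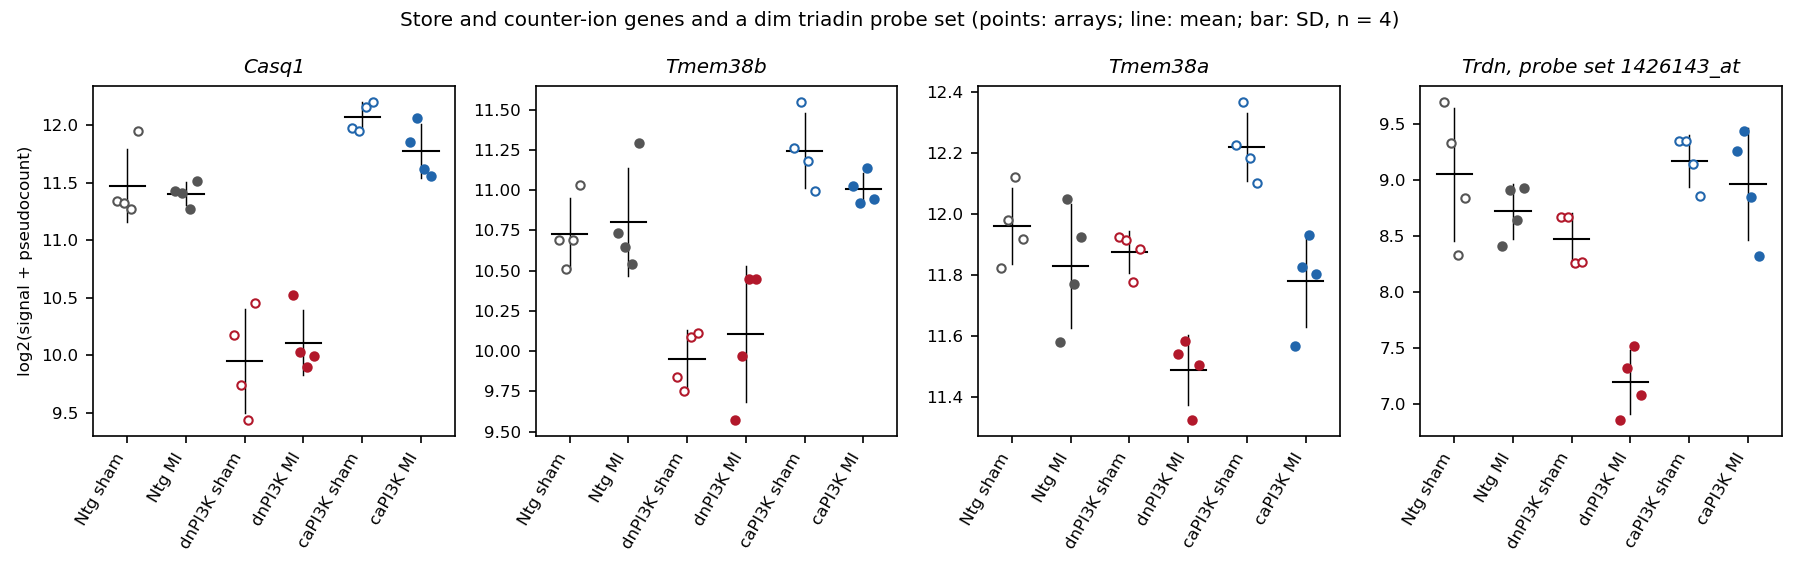
Level on every array, log2(signal + pseudocount), of *Casq1*, *Tmem38b*, *Tmem38a* and the dimmest *Trdn* probe set in the 6 groups; open points are sham and filled points MI arrays, lines means and bars SD (n = 4), with a vertical scale for each panel. The dnPI3K arrays of *Casq1* (9.44 to 10.52) and *Tmem38b* (9.57 to 10.45) lie below the other arrays after both operations. On the *Trdn* probe set the dnPI3K MI arrays (6.86 to 7.51) lie below all others. Its dnPI3K sham arrays (8.26 to 8.68) lie below the caPI3K sham arrays (8.86 to 9.35).

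*Sln*, sarcolipin, a small inhibitor of the pump that is strongest in atria, rose in Ntg hearts by 2.18 (SE 0.52, adjusted p = 0.039), but its sham arrays spread from 7.69 to 10.78. Leaving out any array but sham replicate 4 ended the call, with changes from 1.72 to 2.41 and adjusted p from 0.0526 to 0.225. *Sln* is in the list of atrial markers, 2 of whose 7 genes were called higher there, with a summed level of 13.85 to 15.86 after sham and 15.73 to 15.93 after MI; the part of atrial tissue was not tested. *S100a1*, a calcium sensor that binds SERCA2 and the ryanodine receptor, fell with MI in dnPI3K hearts by 0.27 (change -0.27, SE 0.07, adjusted p = 0.0164) but stood at -0.01 with quantile normalization (adjusted p = 0.933), and it was lost without dnPI3K sham replicate 1 (-0.22, 0.0803) or dnPI3K MI replicate 2 (-0.25, 0.0546). *Srl*, sarcalumenin, a calcium-binding protein of the store, was 0.33 higher in caPI3K than in dnPI3K sham hearts (SE 0.08, adjusted p = 0.00545), and *S100a1* was lower (-0.30, SE 0.07, adjusted p = 0.00654). Of 11 ways of processing, 10 called *Srl* and 9 *S100a1* in this comparison. Here and below, the 11 include the reported fit and 1 that leaves a single caPI3K sham array. *Calu*, calumenin, rose after MI in dnPI3K hearts (0.26, SE 0.08, adjusted p = 0.0365), a call that held in 2 of 8 runs with 1 array left out (0.20 to 0.30).

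In the list of release and couplon genes, with 11 of 16 measured, *Cmya5*, which holds couplons at the Z-disc, fell after MI in dnPI3K hearts (-0.43, SE 0.12, adjusted p = 0.019) and was lower there than in infarcted Ntg hearts (-0.46, SE 0.12, adjusted p = 0.0266), calls that held in 5 and 3 of 8 runs with 1 array left out. *Sri*, sorcin, a calcium sensor of the ryanodine receptor, rose after MI in dnPI3K hearts (0.33, SE 0.09, adjusted p = 0.0259), in 4 of 8 such runs too. Of 17 kinases, phosphatases and anchors, 5 differed between caPI3K and dnPI3K sham hearts, where 9.90% of all genes were called. *Akap1* (0.60, SE 0.12) and *Camk2g* (0.65, SE 0.14), an anchor for protein kinase A and an isoform of the calcium/calmodulin kinase, were higher in caPI3K. *Ppp1ca* (-0.31, SE 0.06), the catalytic subunit of protein phosphatase 1, and *Prkar1a* (-0.33, SE 0.08), a regulatory subunit of protein kinase A, were lower, with adjusted p from 0.000562 to 0.00517. Of 11 ways of processing, 9 called *Akap1*, 10 *Camk2g*, 10 *Ppp1ca* and 7 *Prkar1a* in sham hearts. In infarcted hearts *Prkar1a* was again lower in caPI3K (-0.33, SE 0.08, adjusted p = 0.0123) and *Prkaca*, the catalytic subunit of protein kinase A, was higher (0.26, SE 0.07, adjusted p = 0.0296; 3 of 8 runs).

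Among 13 measured genes of calcium and sodium transport across the surface membrane, *Cacna1s* fell after MI in dnPI3K hearts at low signal (-0.85, SE 0.27, adjusted p = 0.0475), and in 2 of 8 runs with 1 array left out. *Cacna2d1*, an accessory subunit of the L-type channel, was higher in caPI3K than in dnPI3K sham hearts (0.53, SE 0.12, adjusted p = 0.0033), a call that held in 10 of 11 ways of processing. Among 6 measured mitochondrial calcium genes *Ghitm* fell after MI in dnPI3K hearts (-0.23, SE 0.07, adjusted p = 0.0402; 1 of 8 runs), and *Letm1* was higher in caPI3K than in dnPI3K sham hearts (0.36, SE 0.12, adjusted p = 0.0444; 2 of 8 runs).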

How the data were processed

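RNA of whole hearts was hybridised to 24 Affymetrix arrays of 45101 probe sets, with 4 arrays in each of 6 groups. The deposited values are linear signal intensity per probe set; per the submitters' processing notes they come from MAS5, for which no version is given. Each array has a trimmed mean (2% cut at both ends) of 500.0, so the authors' values were scaled to a common mean, and no other step is given in the sources used here. The array's annotation gave 34945 probe sets 1 gene, 932 several and 9160 none, and 64 controls were left out; 34754 matched RefSeq by gene. Probe sets above the 40th percentile of their array on at least 4 arrays were kept (33061), and the brightest per gene was tested. On log2(signal + 11.2), where 11.2 is the median signal divided by 10, limma 3.58.1 (R 4.3.3) fitted 6 group means with a variance trend and 18 residual degrees of freedom, and p-values were adjusted by Benjamini-Hochberg over 14763 genes. Adding a pseudocount shrinks the changes of dim genes. The fit was tried on simulated data in which each gene varied independently. These held no shift of the bright end and no effect of array number, so that trial cannot speak to the scaling. Genes named are the members, up to 4 called genes per list and comparison with the smallest p, and the 5 genes most correlated with *Atp2a2* and with *Pln*. The members and lists were chosen with earlier results of these data known. Alternatives were another pseudocount, no filter, the mean of all probe sets, quantile normalization, scaling on the brightest or on contractile genes, a term for array numbers, groups of arrays left out, a fit on the compared groups alone and each array left out in turn. Figures were drawn with matplotlib 3.10.9.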

Additional observations from a re-analysis of the deposited data

Results flagged for a closer look

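In 60 groups of 4 arrays (10 calcium cycling genes in 6 groups), 4 held an array apart from the other 3 by Dixon's criterion; chance alone gives about 1 in 20. *Cacna1c* was low on Ntg MI replicate 1, at 9.90 with the nearest array at 10.38, and on dnPI3K MI replicate 4, at 9.93 with the nearest at 10.54. *Casq2* was low on dnPI3K sham replicate 3, at 13.69 with the nearest at 13.97, and the difference from caPI3K sham hearts was not called without that array. *Pln* was high on caPI3K sham replicate 1, at 15.75 with the nearest at 15.65.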

How the results depend on the processing

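Of 2310 recomputed changes of the 10 genes (120 results), 2263 kept their side of the threshold, 26 lost a call and 21 gained one. Few of the 120 results were called as reported, so most of the 2263 stayed uncalled. The called ones were 3 after MI in dnPI3K, 1 in caPI3K against dnPI3K sham, 1 in dnPI3K against Ntg MI and 2 in caPI3K against dnPI3K MI. All 26 losses fell on these. The sign changed in 168 of the 2310 (54 results), 0 of which were called with either processing, and in 3 of 59 recomputed differences of *Pln* minus *Atp2a2*. For 31 called results of pathway genes, 376 of 536 kept the call and 160 lost it, with 0 changes of sign. The count of members called moved by over 1.5 times, or to or from 0, in the cases that follow. Scaling on contractile genes gave 1 after MI in Ntg (*Slc8a1*), 1 after MI in dnPI3K (*Hrc*), 2 in caPI3K against Ntg sham (*Casq2*, *Slc8a1*) and 3 in caPI3K against dnPI3K sham. Quantile normalization gave 1 (*Hrc*) after MI in dnPI3K and 3 in caPI3K against dnPI3K sham, and scaling on the brightest genes 2 in the latter. Without sham arrays 415 to 418 the counts were 1 after MI in dnPI3K and 0 in caPI3K against dnPI3K sham, which was also 0 without the arrays with Y-linked signal. Fits on the compared groups alone gave 1 after MI in caPI3K (*Ryr2*) and 2 in caPI3K against dnPI3K sham, and the mean of all probe sets gave 2 in dnPI3K against Ntg MI (*Hrc*, *Trdn*). Smaller moves after MI in dnPI3K were 2 with scaling on the brightest genes (without *Trdn*), 2 in the fit on the compared groups alone (without *Atp2a2*) and 4 with the term for array numbers (with *Pln*). *Casq2* joined in caPI3K against dnPI3K MI with scaling on contractile genes and in the fit on the compared groups alone, 3 in each. The cause was not tested. Leaving out 1 array gave 0 to 3 members after MI in Ntg (3 without Ntg sham replicate 4), 1 to 4 in dnPI3K (1 without dnPI3K sham replicate 1) and 0 in caPI3K. Among sham hearts it gave 0 to 1 for caPI3K against Ntg and 0 to 1 for caPI3K against dnPI3K. Among infarcted hearts it gave 0 to 3 for dnPI3K against Ntg and 0 to 2 for caPI3K against dnPI3K.

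Over all genes the count called after MI was 1384 in dnPI3K (667 to 1672 with other processing, 843 to 1334 with 1 array left out), 114 in Ntg (9 to 338, and 25 to 672) and 164 in caPI3K (9 to 404, and 70 to 168). In sham hearts it was 1461 for caPI3K against dnPI3K (234 to 1634, and 984 to 1321), 41 for caPI3K against Ntg (4 to 284, and 10 to 412) and 169 for dnPI3K against Ntg (41 to 182, and 79 to 188). In infarcted hearts it was 382 for dnPI3K against Ntg (179 to 415, and 217 to 493). No paired analysis was possible because replicate numbers were given in accession order and pair no arrays. With 4 arrays a group, small changes cannot be resolved, and brightness limits the dim probe sets.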
